A study of Mus musculus with 20 samples.

Results

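Genes of dietary fat absorption were followed in the cecum of mice fed RPS, namely the transcription factor gene Creb3l3, the apolipoprotein genes Apoa4, Apoa1, Apoc3 and Apob, and the genes Mttp, Fabp1, Fabp2, Dgat1 and Mogat2, whose products carry, esterify or package absorbed fat. The genes share a role in fat absorption and were chosen with earlier results of these data known, and all 10 members were found among the 19887 genes of the count table. Of these, 9 had enough counts to be tested among 15348 tested genes, and Apoc3 did not. The data are RNASeq counts from the cecum of 20 C57BL/6 mice on 4 diets, with 5 mice per diet. From 3 weeks of age every mouse ate the TWD, a rodent diet whose nutrients follow those of the average American diet, for 6 weeks. For 3 more weeks the mice then ate the TWD with 0, 2, 5, or 10% RPS, which is raw potato starch, a starch that largely escapes digestion before the cecum. The mice with 0% RPS stayed on the TWD and are the controls, against which each amount of RPS was compared to ask whether it changed expression. Whole cecum tissue was used, so fewer cells of a type and less RNA per cell cannot be told apart. Total counts were between 14967798 and 42687283 per mouse.

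Absorbed fat is taken up by enterocytes as fatty acids and monoglycerides, which cytosolic fatty acid binding proteins such as Fabp1 and Fabp2 carry through the cell. Mogat2 and Dgat1 join them again to triglyceride, and Mttp loads the triglyceride onto Apob in the endoplasmic reticulum to form a chylomicron, which also carries Apoa1, Apoa4 and Apoc3. Creb3l3 is a membrane-bound transcription factor of the endoplasmic reticulum in liver and gut, released by proteolysis in the Golgi and known to induce Apoa4 and other lipid transport genes. Most dietary fat is absorbed in the small intestine, upstream of the cecum.

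Creb3l3 and Apoa4 fell on RPS, and the other members did not pass the test in any comparison. In mice fed 10% RPS, Apoa4 was 9.66-fold lower than in mice fed 0% RPS and Creb3l3 was 3.43-fold lower. The trend with the amount of RPS passed for both, and Apoa4 was also lower with 5% RPS. By edgeR, Creb3l3 did not pass with 5% RPS, and neither gene passed with 2% RPS. Calls of both genes were lost in some fits that left out 1 mouse or took the level of cell type markers into account, as given below. Fabp2, Dgat1 and Mogat2, which carry fatty acids and make triglyceride, had mean levels within 1.5-fold of the control mean in each RPS diet.

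The sequence before the transcription start is shown for Apoa4 and Creb3l3, which fell, and for Apoa1, a gene of the same cluster as Apoa4. RefSeq windows of 250 bases before a start were available for 7 of the 10 members, with 8 starts, in a table of build GRCm38.p6, and each was placed on GRCm39 by an exact match at 1 position. Printed are the bases of each window that lie outside the annotated exons of the gene, 5′ to 3′ on the strand of the gene. Capitals mark matches on either strand to TGACG (a part of the cyclic AMP response element), CCACG (the box of the unfolded protein response element) or CAAAGT (the core of the HNF4A motif).
Apoa4, chr9:46151892-46151993, plus strand: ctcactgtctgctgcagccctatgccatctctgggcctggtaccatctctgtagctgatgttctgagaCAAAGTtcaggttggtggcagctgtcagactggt
Apoa1, chr9:46139678-46139877, plus strand: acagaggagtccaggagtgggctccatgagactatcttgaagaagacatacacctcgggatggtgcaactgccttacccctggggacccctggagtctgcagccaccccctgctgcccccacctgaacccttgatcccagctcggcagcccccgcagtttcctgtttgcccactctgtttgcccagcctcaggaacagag
Creb3l3, chr10:80934709-80934956, minus strand: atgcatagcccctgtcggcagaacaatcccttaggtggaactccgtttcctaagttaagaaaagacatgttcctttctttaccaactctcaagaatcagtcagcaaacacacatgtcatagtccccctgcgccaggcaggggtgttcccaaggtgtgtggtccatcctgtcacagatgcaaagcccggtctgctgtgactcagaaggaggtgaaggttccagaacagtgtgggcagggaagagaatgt

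Over all 32851 RefSeq windows of 250 bases, TGACG was found on either strand in 17.8%, CCACG in 28.3%, CAAAGT in 12.6%, AGGTCA (a nuclear receptor element) in 14.0% and TATAAA (the TATA box) in 12.4%. The Apoa4 window held CAAAGT, 182 bases before the RefSeq start, and the Apoa1 window held none of the 5 motifs. Among the members that did not pass, Fabp2 held CAAAGT, Mttp held TGACG and CCACG, Fabp1 held AGGTCA and TATAAA, and Apob held TATAAA. Creb3l3 has a second RefSeq start inside the gene, at position 80928425 of chromosome 10, and that window held TGACG at 239, AGGTCA at 202, CAAAGT at 177 and CCACG at 110 bases before the start. The whole of that window lies within annotated exons of Creb3l3, and the whole of the Mttp window within those of Mttp. The window of the outer Creb3l3 start, printed above, held none of the 5 motifs. A match is a description of the letters and not a binding site.

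Creb3l3 (ENSMUSG00000035041) lies on the minus strand of chromosome 10 of GRCm39, from 80920141 to 80934708. Its level in the 5 mice fed 0% RPS was 128, 145, 216, 138 and 189 CPM, which are counts scaled to the library size. With 2% RPS it was 87.5, 135, 87.5, 154 and 42.4 CPM, and with 5% RPS 89.7, 65.4, 41.3, 42.3 and 30.7 CPM. With 10% RPS it was 28.5, 32.9, 29.7, 95.4 and 52.3 CPM. Every mouse fed 5 or 10% RPS was below every mouse fed 0% RPS, while those fed 2% RPS overlapped with the controls, and 13 of the 15 mice on RPS were below every control mouse. The means were 163 ± 37.7 CPM (SD, n = 5) with 0% RPS, 101 ± 43.9 with 2%, 53.9 ± 23.7 with 5% and 47.8 ± 28.3 with 10% RPS.

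With 10% RPS the log2 fold change of Creb3l3 was -1.78 (SE 0.39, adjusted p = 0.0289 by the quasi-likelihood test of edgeR with Benjamini-Hochberg adjustment), a 3.43-fold lower level with a 95% confidence interval of 1.95 to 6.02. With 5% RPS it was -1.59 (SE 0.38, adjusted p = 0.0757 by edgeR), and with 2% RPS -0.69 (SE 0.38, adjusted p = 0.885 by edgeR). Only the change with 10% RPS passed the threshold of an adjusted p of at most 0.05 and a fold change of at least 1.5. With DESeq2's Wald test, the change with 5% RPS passed as well (adjusted p = 0.00899). That test called 241 of all genes with 5% RPS, against 30 by edgeR. These comparisons share the control mice. The linear trend was -0.17 on the log2 scale per 1% RPS (SE 0.04, adjusted p = 0.0366 by edgeR). Between 2 and 5% RPS the difference was -0.90 (SE 0.38) and between 5 and 10% RPS -0.18 (SE 0.38), and neither passed by edgeR.

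Apoa4 (ENSMUSG00000032080) lies on the plus strand of chromosome 9, from 46151994 to 46154757, and encodes a lipid-binding protein of chylomicrons. The mice fed 0% RPS had 79, 49, 63, 64 and 68 counts of it. Those fed 2% RPS had 3, 17, 22, 23 and 6 counts, those fed 5% RPS 11, 2, 2, 4 and 1, and those fed 10% RPS 6, 1, 4, 16 and 3. All 15 mice on RPS were below every mouse fed 0% RPS, the highest at 0.754 CPM against a lowest control of 1.95 CPM. This held for 24 of the 15348 genes tested, or 0.156%. The means were 2.20 ± 0.270 CPM (SD, n = 5) with 0% RPS, 0.455 ± 0.290 with 2%, 0.132 ± 0.102 with 5% and 0.246 ± 0.291 with 10% RPS. Several mice on RPS were at or under 3 counts, the lowest level taken as detectable, so the size of the fold change rests on few reads. Gm47528, which overlaps Apoa4 on the opposite strand, had 0 counts in all 20 mice. Gm10680, a noncoding RNA gene that also overlaps Apoa4 on that strand, was not in the count table.

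The log2 fold change of Apoa4 was -3.27 with 10% RPS (SE 0.58, adjusted p = 0.0140 by edgeR), -3.95 with 5% RPS (SE 0.61, adjusted p = 0.0130) and -2.25 with 2% RPS (SE 0.53, adjusted p = 0.712). The corresponding levels were 9.66-fold, 15.4-fold and 4.76-fold lower, with 95% confidence intervals of 4.18 to 22.3, 6.35 to 37.4 and 2.22 to 10.2. The changes with 5 and 10% RPS passed the threshold. With 2% RPS the unadjusted p was 0.000373, and 0 of the 15348 genes passed in that comparison. DESeq2's Wald test gave an adjusted p of 0.106 for Apoa4 with 2% RPS. The authors' own analysis, also with DESeq2, listed Apoa4 as lower in the cecum with 2% RPS. The cause of this difference was not tested. The trend was -0.35 per 1% RPS (SE 0.07, adjusted p = 0.0333 by edgeR). Between 2 and 5% RPS the log2 difference was -1.69 (SE 0.64) and between 5 and 10% RPS 0.67 (SE 0.70), and neither passed by edgeR.

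**Figure D1:**
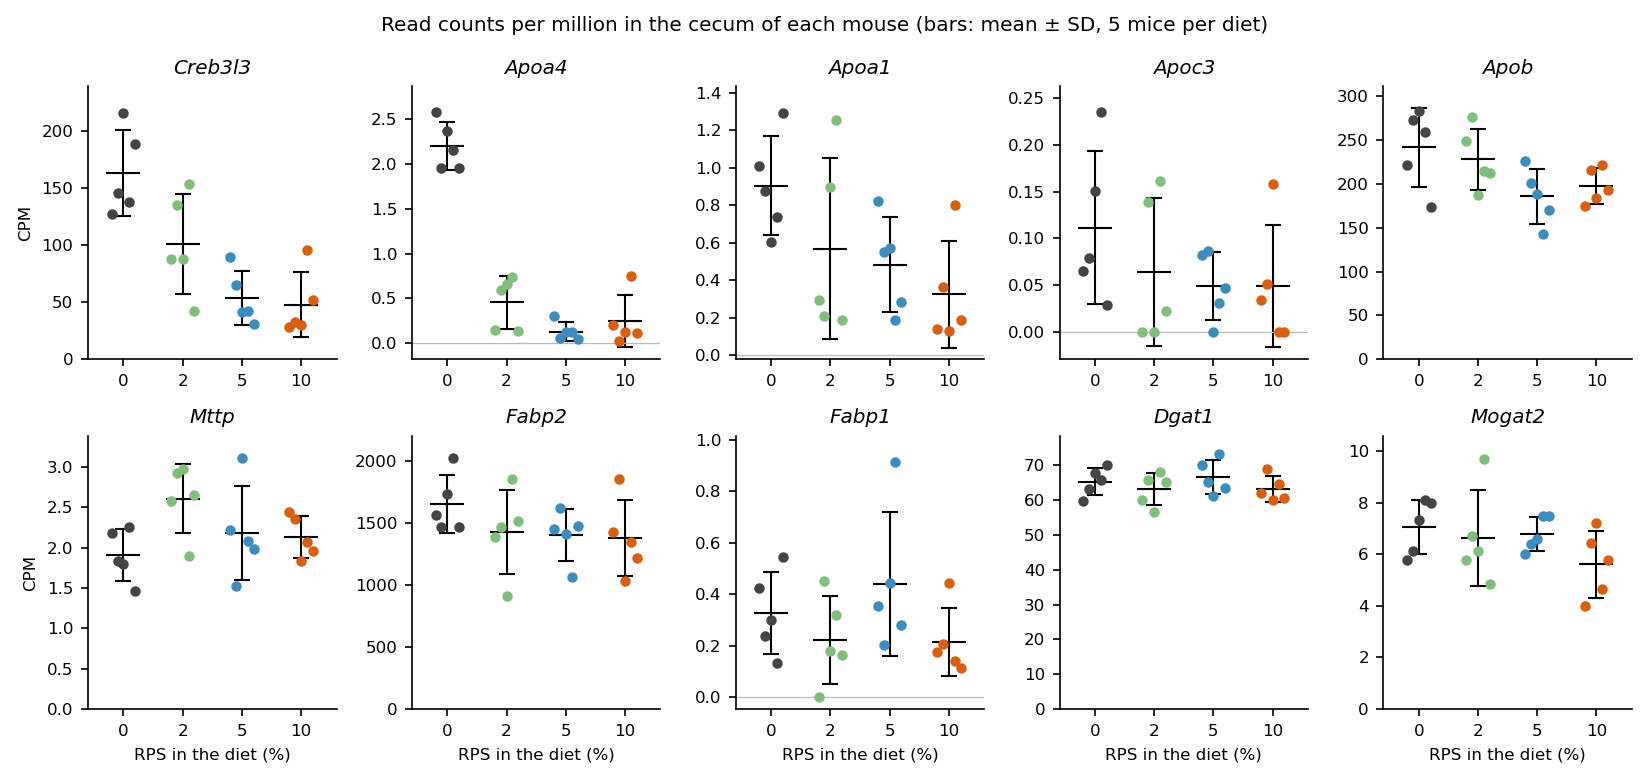
CPM (y axis, linear) of each of the 10 genes in each mouse (points), against the percentage of RPS in the diet (x axis). Bars are the mean ± SD of 5 mice. Apoa4 in the 15 mice on RPS sits at or below 0.754 CPM, under all control mice, whereas the diets overlap for Dgat1.

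Apoa1 (ENSMUSG00000032083, chromosome 9, plus strand, 46139878 to 46142212) encodes the main protein of high density lipoprotein and lies in the same gene cluster as Apoa4. It had 31, 22, 16, 22 and 45 counts with 0% RPS and 4, 14, 4, 17 and 5 counts with 10% RPS. With 2% RPS it had 6, 6, 30, 39 and 8 counts, and with 5% RPS 30, 19, 9, 6 and 6. The groups overlapped in every comparison, and 11 of the 15 mice on RPS were below every control mouse. The log2 fold change with 10% RPS was -1.53 (SE 0.56, unadjusted p = 0.0126, adjusted p = 0.144 by edgeR), and with 5 and 2% RPS it was -0.89 (SE 0.54) and -0.66 (SE 0.53). None passed the threshold. Without the 4th mouse fed 10% RPS, the highest of its diet in Apoa1, Apoa4 and Creb3l3, the log2 fold change of Apoa1 was -2.10 (adjusted p = 0.0479 by edgeR). Of the 20 fits that leave out 1 mouse, only this one passed for Apoa1 (adjusted p up to 0.324 by edgeR). It called 302 of all genes, in place of 160.

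Apoc3 (ENSMUSG00000032081, chromosome 9, minus strand, 46142527 to 46146934), whose product slows the breakdown of triglyceride-rich lipoproteins, had 42 counts in the 20 mice. It had 2, 2, 4, 7 and 1 counts with 0% RPS and 1, 2, 5, 0 and 0 counts with 10% RPS. With 2% RPS it had 0, 4, 0, 5 and 1 counts and with 5% RPS 3, 3, 0, 1 and 1, so most mice were at or near the lowest detectable level. Its mean was 0.112 ± 0.0818 CPM (SD, n = 5) with 0% RPS and 0.0489 ± 0.0650 with 10% RPS (two-sided exact permutation test, p = 0.214, where 0.00794 is the smallest p that 5 against 5 mice allow). A difference was not detectable at this depth.

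Apoa1, Apoc3, Apoa4 and Apoa5 lie within 43340 bases of chromosome 9. Apoa5, another regulator of triglyceride clearance, had 24 counts in all 20 mice. The neighbours on either side did not pass with 10% RPS. Sik3, a protein kinase gene before Apoa1, had a log2 fold change of -0.08 (SE 0.15, adjusted p = 0.827 by edgeR). Zpr1 and Bud13, after Apoa5, had -0.04 (SE 0.08, adjusted p = 0.846) and -0.07 (SE 0.13, adjusted p = 0.836 by edgeR).

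Apob (ENSMUSG00000020609, chromosome 12, plus strand, 8027648 to 8066835), the structural protein on which the chylomicron is built, had 222, 273, 283, 259 and 173 CPM with 0% RPS and 175, 215, 184, 221 and 193 CPM with 10% RPS. With 2% RPS it had 249, 277, 188, 214 and 212 CPM, and with 5% RPS 226, 201, 189, 143 and 171 CPM. The diets overlapped, and the lowest mouse on 0% RPS was below all 5 on 10% RPS. The log2 fold changes were -0.29 with 10% RPS (SE 0.14, unadjusted p = 0.0444, adjusted p = 0.245 by edgeR), -0.38 with 5% RPS (SE 0.14, adjusted p = 0.198) and -0.09 with 2% RPS (SE 0.14, adjusted p = 0.979). None passed.

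Mttp (ENSMUSG00000028158, chromosome 3, minus strand, 137795612 to 137850729), the transfer protein that loads fat onto Apob, had a low level, 1.46 to 2.25 CPM with 0% RPS, 1.90 to 2.97 with 2%, 1.53 to 3.11 with 5% and 1.83 to 2.44 with 10% RPS. The diets overlapped. Its log2 fold change was 0.45 with 2% RPS (SE 0.19, unadjusted p = 0.0254, adjusted p = 0.849 by edgeR) and 0.16 with 10% RPS (SE 0.19, adjusted p = 0.677). Mttp overlaps Trmt10a on the opposite strand, and the sources used here do not say whether strand was used in counting. With Trmt10a at 2701 counts against 1294 for Mttp over the 20 mice, reads of the pair could be mixed.

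The fatty acid binding protein genes differed widely in level. Fabp2 (ENSMUSG00000023057, chromosome 3, plus strand, 122688721 to 122693155), the intestinal form, had 1468 to 2022 CPM with 0% RPS (median 1561), 914 to 1853 with 2%, 1062 to 1618 with 5% and 1036 to 1856 CPM with 10% RPS (median 1349). Its log2 fold change with 10% RPS was -0.26 (SE 0.17, 95% confidence interval -0.61 to 0.09, adjusted p = 0.398 by edgeR). Of the 15 mice on RPS, 10 were below every control mouse. Fabp1 (ENSMUSG00000054422, chromosome 6, plus strand, 71176809 to 71182016), the form shared with liver, had 13, 6, 8, 4 and 19 counts with 0% RPS and 5, 8, 14, 3 and 3 with 10% RPS. It had 0 to 13 counts with 2% and 6 to 29 with 5% RPS. The log2 fold change of Fabp1 was -0.59 with 10% RPS (SE 0.56) and 0.40 with 5% RPS (SE 0.53), and its intervals are too wide to show a change of 1.5-fold either way.

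Dgat1 and Mogat2 make triglyceride from absorbed fatty acids. Dgat1 (ENSMUSG00000022555, chromosome 15, minus strand, 76385083 to 76396476) had 65.4 ± 3.95 CPM (SD, n = 5) with 0% RPS, 63.2 ± 4.67 with 2%, 66.7 ± 4.84 with 5% and 63.3 ± 3.74 with 10% RPS. The change of Dgat1 with 10% RPS was -0.05 on the log2 scale with a 95% confidence interval of -0.19 to 0.10, so a change of 1.5-fold lies outside the interval. Dgat1 overlaps Hsf1 on the opposite strand, which had 18787 counts against 38398 for Dgat1. Mogat2 (ENSMUSG00000052396, chromosome 7, minus strand, 98868291 to 98887830) had 7.06 ± 1.05 CPM with 0% RPS, 6.63 ± 1.85 with 2%, 6.79 ± 0.670 with 5% and 5.62 ± 1.30 with 10% RPS. For Mogat2 the log2 fold change with 10% RPS was -0.33 (SE 0.18, adjusted p = 0.320 by edgeR), and the diets overlapped.

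Over the 9 members tested, 2 were lower with 10% RPS and 0 were higher, where 0.495% of all genes tested were lower and 0.547% higher (1.04% in either direction). With 5% RPS 1 member was lower, where 0.0977% of all genes were. With 2% RPS 0 members passed by edgeR or by DESeq2, where 0% of all genes did by edgeR and 5 genes did by DESeq2. At an unadjusted p under 0.05 by edgeR there were 2 members, Apoa4 and Mttp (5.77% of all genes). Between 2 and 5% RPS and between 5 and 10% RPS 0 members passed by either tool, with 0% of all genes by edgeR, and 3 members (3.39% of all genes) and 0 members (2.79%) had an unadjusted p under 0.05. The trend passed for 2 members, both negative, where 0.73% of all genes had a negative trend. Every mouse fed 10% RPS was below every control mouse for 2 members (3.2% of all genes), and so was every mouse fed 5% RPS for 2 members (2.04%) and fed 2% RPS for 1 member (0.671%). At an unadjusted p under 0.05 there were 4 of 9 members with 10% RPS, where 19.5% of all genes were. The median log2 fold change with 10% RPS was -0.33 over the 9 members and 0.00 over all genes.

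**Figure D2:**
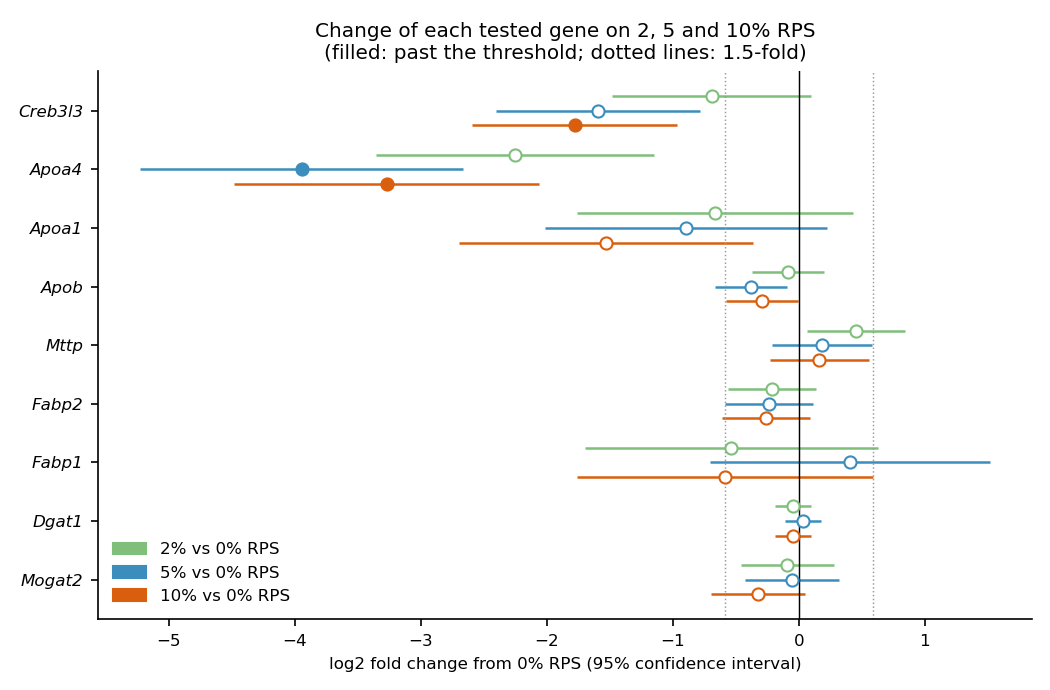
Log2 fold change from 0% RPS (x axis) of the 9 tested genes with 2, 5 and 10% RPS (colors), with 95% confidence intervals. Filled points are past the threshold and dotted lines mark 1.5-fold. Apoa4 lies between -3.95 and -2.25 in the 3 diets, and Dgat1 between -0.05 and 0.03.

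Some calls changed when 1 mouse was left out. Apoa4 passed with 10% RPS in 18 of the 20 fits that leave out 1 mouse, with an adjusted p between 0.00158 and 0.0760 by edgeR. The exceptions were the fits without the 1st (adjusted p = 0.0571) or the 3rd (adjusted p = 0.0760) mouse fed 10% RPS. Creb3l3 passed in 13 of these 20 fits (adjusted p between 0.00625 and 0.101), and not without the 3rd, 4th or 5th mouse fed 0% RPS or the 1st, 2nd, 3rd or 5th fed 10% RPS. The log2 fold change stayed between -4.21 and -2.93 for Apoa4 and between -2.19 and -1.64 for Creb3l3. Apoa4 with 5% RPS did not pass without the 2nd, 3rd or 5th mouse fed 5% RPS. The trend passed in 14 of the 20 fits for Apoa4 (adjusted p between 0.00251 and 0.0967 by edgeR), and not without the 1st, 3rd, 4th or 5th control mouse or the 1st or 3rd mouse fed 10% RPS. For Creb3l3 it passed in 12 fits (adjusted p between 0.00494 and 0.112 by edgeR), and not without those mice, the 4th fed 2% RPS or the 2nd fed 10% RPS. Tested against a fold change of 1.5 in place of 1, neither gene passed with 10% RPS (adjusted p = 0.255 for Apoa4 and 0.784 for Creb3l3 by edgeR), nor did any of the 15348 genes. The number of all genes called moved as well, from 160 to 19 without the 1st and to 14 without the 3rd mouse fed 10% RPS, to 302 without the 4th of that diet and to 344 without the 2nd mouse fed 0% RPS. Without any 1 of the other control mice, or without the 2nd or 5th mouse fed 10% RPS, it was between 34 and 98.

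Markers of other cell types were measured in the same libraries, and their counts are to be read against the 19.5% of all genes at an unadjusted p under 0.05 with 10% RPS and the 1.04% past the threshold. Of 6 smooth muscle markers, 4 had a higher estimate at an unadjusted p under 0.05 and 1, Actg2, was higher past the threshold (log2 fold change 1.28, adjusted p = 0.0358 by edgeR). Their summed level was 2441 to 5668 CPM with 0% RPS, 3236 to 5660 with 2%, 4154 to 9680 with 5% and 3993 to 6694 CPM with 10% RPS. The 10 epithelial markers summed to 13379 to 17297 CPM with 0% RPS and 12001 to 16395 CPM with 10% RPS, where 4 had a lower estimate at an unadjusted p under 0.05 and 0 passed by edgeR. With the mean level of the smooth muscle markers as a covariate, the log2 fold change with 10% RPS was -2.66 for Apoa4 (adjusted p = 0.113 by edgeR) and -1.30 for Creb3l3 (adjusted p = 0.135), and neither passed. With that of the epithelial markers it was -3.21 (adjusted p = 0.0826) and -1.56 (adjusted p = 0.146). These fits called 0 and 5 of all genes, in place of 160.

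Of 12 markers of small intestinal enterocytes measured, 11 were tested and 2 were lower with 10% RPS, Alpi, an intestinal alkaline phosphatase (log2 fold change -0.76, adjusted p = 0.0275 by edgeR), and Rbp2, described below. Fabp6, Sis and Lct, defining genes of the small intestine, had at most 1.35, 1.11 and 0.325 CPM in the control mice. Slc10a2, the ileal bile acid transporter, had 39.8 to 78.4 CPM with 0% RPS and 84.3 to 169 CPM with 10% RPS (log2 fold change 0.90, adjusted p = 0.0641 by edgeR). The summed level was 830 to 981 CPM with 0% RPS and 813 to 1029 CPM with 10% RPS. With the mean level of these markers as a covariate, the log2 fold change was -2.36 for Apoa4 (adjusted p = 0.364) and -1.18 for Creb3l3 (adjusted p = 0.435 by edgeR). This fit called 1 of all genes, in place of 160, and its covariate includes Alpi and Rbp2, which were themselves lower.

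Lymphocyte markers summed to 70.7 to 494 CPM with 0% RPS and 289 to 551 CPM with 10% RPS, with 0 of 7 past the threshold. With their mean level as a covariate Apoa4 passed (log2 fold change -3.73, adjusted p = 0.0111 by edgeR) and Creb3l3 did not (-1.74, adjusted p = 0.0665). This fit called 84 of all genes, in place of 160. The 6 hepatocyte markers measured summed to 41.3 to 72.0 CPM with 0% RPS and 56.2 to 72.3 CPM with 10% RPS, with 0 of 3 tested past the threshold and a median log2 fold change of 0.34. Alb, the albumin gene that defines hepatocytes, was at 0.101 to 0.976 CPM with 0% RPS and at most 0.330 CPM with 10% RPS, and Serpina1a had at most 3 counts in every mouse. Adipocyte markers summed to 102 to 374 CPM with 0% RPS and 35.2 to 310 CPM with 10% RPS, with 0 of 7 past the threshold. Of the 7 goblet cell markers, 5 had a lower estimate at an unadjusted p under 0.05 with 10% RPS, where 19.5% of all genes were in either direction, and 1 passed (Zg16, log2 fold change -0.84), and their median was -0.54. Their summed level was 9054 to 12200.2 CPM with 0% RPS and 7153 to 8749 CPM with 10% RPS. Of the 8 markers of absorptive colonocytes, 4 had a lower and 2 a higher estimate at an unadjusted p under 0.05, with a median of -0.37, and 1 passed, Slc26a3, a chloride transporter (0.61). The part of hepatocytes, adipocytes, goblet cells and absorptive colonocytes in the results was not tested.

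Levels of different genes were compared per length, as CPM per kilobase of exon (RPKM). In the control mice the order was Fabp2 with 1711 ± 243 RPKM (SD, n = 5), Creb3l3 with 44.6 ± 10.3, Apob with 17.4 ± 3.23, Dgat1 with 14.4 ± 0.868 and Mogat2 with 3.84 ± 0.572. Below these came Apoa4 with 1.21 ± 0.149 RPKM, Apoa1 with 0.529 ± 0.155, Fabp1 with 0.487 ± 0.237, Mttp with 0.269 ± 0.0451 and Apoc3 with 0.0354 ± 0.0259. Apob and Dgat1 differed by less than the SD of Apob, as did Apoa1 and Fabp1, and Fabp1 and Mttp, by that of Fabp1. Fabp2 was above 99.9% of the tested genes and Creb3l3 above 95%, whereas Apoa4 was above 34.2%, Apoa1 above 21.5% and Mttp above 13.3%. The ratio of the levels of Creb3l3 and Apob was 2.67 ± 0.911 (SD, n = 5) with 0% RPS, 1.69 ± 0.725 with 2%, 1.08 ± 0.328 with 5% and 0.899 ± 0.455 with 10% RPS. That of Apob and Mttp was 65.1 ± 12.0 with 0% RPS and 47.6 ± 6.89 with 10% RPS.

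**Figure D3:**
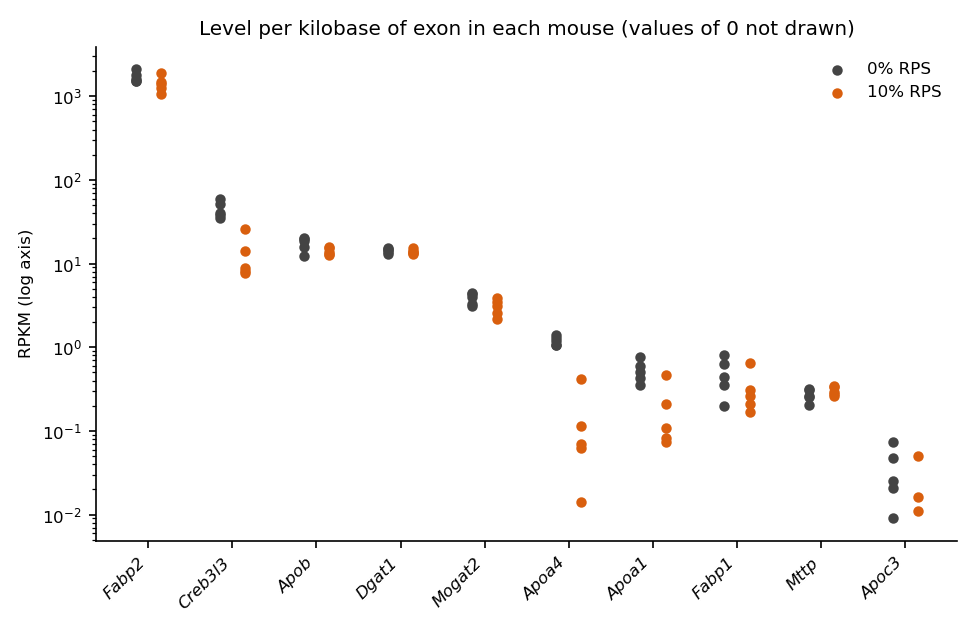
Level per kilobase of exon (RPKM, log y axis) of the 10 genes in each mouse fed 0% RPS (grey) and 10% RPS (orange), in the order of the control means; values of 0 are not drawn. Fabp2 lies above 1000 RPKM in every mouse shown, and Apoc3 below 0.1 RPKM.

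Creb3l3 was compared with the 8 other tested members across the 20 mice after the mean of each diet had been subtracted. Pearson's r was 0.69 with Apoa4 (Spearman's rho 0.56, permutation p = 0.00877 for r and 0.0283 for rho, adjusted p = 0.0702 and 0.111 over 8 pairs). It was 0.61 with Apoa1 (rho 0.53, permutation p = 0.0206 and 0.0415, adjusted p = 0.0826 and 0.111) and 0.41 with Apob (rho 0.55, permutation p = 0.0708 and 0.0167, adjusted p = 0.189 and 0.111). For the other 5 members r was between -0.32 and 0.31. After adjustment 0 of the 8 pairs passed, and 2 had an unadjusted p under 0.05 for r. Without the 4th mouse fed 10% RPS and the 5th fed 2% RPS, the farthest from the median in Creb3l3, r was 0.39 with Apoa4 (permutation p = 0.184) and 0.34 with Apoa1 (permutation p = 0.227). Without them r was 0.37 with Apob (permutation p = 0.173) and 0.48 with Dgat1 (permutation p = 0.0738). Leaving out the mice farthest in Creb3l3 narrows its range, so the lower r cannot show how far the relations rest on these 2 mice. They were kept when a marker mean was regressed out. With the mean of the smooth muscle markers regressed out, r was 0.65 with Apoa4 (adjusted permutation p = 0.0371), 0.46 with Apoa1 and -0.0068 with Apob. With that of the epithelial markers regressed out, r was 0.73 with Apoa4 (adjusted permutation p = 0.0232), 0.55 with Apoa1 and 0.49 with Apob, and only the pair with Apoa4 passed in either case.

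**Figure D4:**
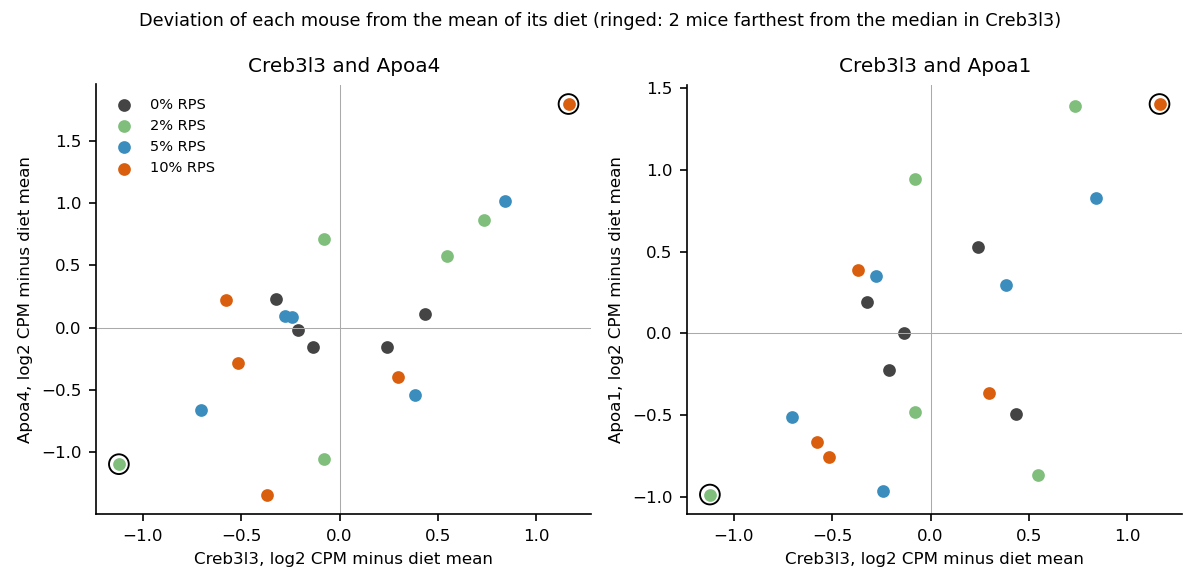
Log2 CPM of Apoa4 (left) and Apoa1 (right) against that of Creb3l3, each as the deviation of a mouse from the mean of its diet (20 points, colored by diet). The ringed mice are the farthest from the median in Creb3l3. They lie at the lower left and upper right, and r falls from 0.69 to 0.39 for Apoa4 without them.

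Among the 15348 tested genes, the 5 whose deviations from the diet means were most like those of Creb3l3 over the 20 mice were Ndrg1 (r = 0.91), Psca (0.89), Ckmt1 (0.88), Sema7a (0.88) and Ralb (0.87). Of these, Ndrg1, a differentiation and stress response gene, Ckmt1, a mitochondrial creatine kinase gene, and Sema7a, a membrane-anchored semaphorin gene, were themselves lower with 10% RPS. Their log2 fold changes were -1.29, -0.62 and -1.92 (adjusted p = 0.0251, 0.0251 and 0.0361 by edgeR), where 0.495% of all genes were lower past the threshold. Psca and Ralb had -2.63 and -0.24 (adjusted p = 0.0964 and 0.132 by edgeR) and did not pass. The 5 most like Apoa4 were Tigd2, Cfap157, Lama3, Adam23 and Flt1 (r between 0.75 and 0.78), and those most like Apob were Tfrc, Mospd2, Wtap, Tc2n and Tent2 (0.86 to 0.91). The correlations share libraries and cell makeup, and those of Apoa4 rest on few counts.

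The other genes of fat handling were taken from 10 lists of 120 genes, of which 118 were in the table and 104 were tested. With 10% RPS 3 of the 104 passed, all lower, where 0.495% of all genes did, 26 had an unadjusted p under 0.05, where 19.5% of all genes had, and the median log2 fold change was -0.14, against 0.00 over all genes. With 5% RPS 2 passed, both lower (0.0977% of all genes), and 21 had an unadjusted p under 0.05 (13.3%). With 2% RPS 0 passed by edgeR and 7 had an unadjusted p under 0.05 (5.77% of all genes). The trend passed for 6 genes, all negative (0.73% of all genes).

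Of the 16 tested genes of triglyceride and cholesteryl ester synthesis, 7 had an unadjusted p under 0.05 with 10% RPS, where 19.5% of all genes had, and 1 passed. Dgat2, which carries out the same last step as Dgat1, had 228 ± 34.2 CPM (SD, n = 5) with 0% RPS, 173 ± 49.2 with 2%, 122 ± 24.3 with 5% and 121 ± 32.0 with 10% RPS. Every mouse on 10% RPS was below every control mouse. Dgat2 changed by -0.92 on the log2 scale with 10% RPS (SE 0.20, adjusted p = 0.0272 by edgeR), and it did not pass with 5% RPS (-0.90, adjusted p = 0.0534). Per length, the ratio of Dgat2 to Dgat1 was 2.62 ± 0.280 with 0% RPS and 1.44 ± 0.380 with 10% RPS. Acsl3, a long-chain acyl-CoA synthetase gene, had 552 to 734 CPM in the control mice and 408 to 480 CPM with 10% RPS, and all 15 mice on RPS were below every control mouse. Its log2 fold change of -0.53 (SE 0.08) had an adjusted p of 0.00603 by edgeR but was under 1.5-fold. Gpat3, an acyltransferase gene, had -0.49 (adjusted p = 0.0686).

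Of the 14 tested genes of lipid droplets and lipases, Plin2 was lower, with 214 ± 40.7 CPM (SD, n = 5) at 0% RPS and 140 ± 7.47 CPM at 10% RPS. Plin2 coats lipid droplets. The log2 fold change of Plin2 was -0.62 with 10% RPS (SE 0.12, adjusted p = 0.0251 by edgeR) and -0.59 with 5% RPS (adjusted p = 0.0434), and 14 of the 15 mice on RPS were below every control mouse. Mgll, which splits monoglycerides, had -0.36 (adjusted p = 0.0405), under 1.5-fold. Cidec, a droplet fusion protein that is also a reported Creb3l3 target and an adipocyte marker, had -0.97 (SE 0.29, adjusted p = 0.0793 by edgeR) and did not pass.

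Of the 6 other binding proteins of the family, Rbp2, a retinol carrier of enterocytes, was lower with 10% RPS (log2 fold change -1.26, SE 0.21, adjusted p = 0.00847 by edgeR) and with 5% RPS (-1.24, adjusted p = 0.0297). It had 47.2 to 73.3 CPM in the control mice and 16.9 to 36.6 CPM with 10% RPS, and all 15 mice on RPS were below every control mouse. Fabp7 and Fabp6 had -1.13 and -0.85 (adjusted p = 0.168 and 0.263), both at no more than 1.35 CPM in any mouse of these diets. Rbp2 passed with 10% RPS in all 20 fits that leave out 1 mouse, with a log2 fold change between -1.48 and -1.13. Dgat2 passed in 14 of these fits and Plin2 in 17. None of Rbp2, Dgat2 and Plin2 passed with the mean of the epithelial or smooth muscle markers as a covariate, or with the fold change tested against 1.5.

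Uptake at the brush border (9 tested), assembly and export of lipoproteins (13 tested) and the other apolipoproteins (9 tested) had 0 genes past the threshold with any amount of RPS or for the trend. For uptake, 0 genes had an unadjusted p under 0.05 with 10% RPS by edgeR, and Abca1, Slc27a2 and Scarb1, a sterol exporter, a fatty acid transporter and a lipoprotein receptor, had log2 fold changes of 0.28, 0.26 and -0.21. For assembly and export, 3 of 13 genes did, where 19.5% of all genes did, namely Surf4, Mia2 and Sec24c (-0.23, -0.17 and -0.12, adjusted p = 0.0723, 0.166 and 0.235). Among the other apolipoproteins 0 did, and Clu, Apoa2 and Apoo had 1.36 (SE 0.70), -0.38 and -0.25.

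Among the lipoprotein lipase genes, Lpcat3, a phospholipid remodeling enzyme placed in that list, had -0.54 with 10% RPS (adjusted p = 0.0251 by edgeR), under 1.5-fold, and passed for the trend (-0.05 per 1% RPS, adjusted p = 0.0366). Gpihbp1 and Lmf1, which anchor and mature the lipase, had -0.56 and -0.24 (adjusted p = 0.261 and 0.132). Of 22 tested regulators, 0 passed with 10% RPS and 6 had an unadjusted p under 0.05 by edgeR, where 19.5% of all genes had. Pparg, a fatty acid receptor, had -0.41 (SE 0.11, adjusted p = 0.0507) and passed for the trend (-0.04 per 1% RPS, adjusted p = 0.0459). Nr1h3 and Nr1h4, receptors for oxysterols and bile acids, had -0.39 and -0.34 (adjusted p = 0.0838 and 0.0698).

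The relatives of Creb3l3 and its proteases gave 0 of 6 genes past the threshold. At an unadjusted p under 0.05 with 10% RPS by edgeR there was 1 of the 6, where 19.5% of all genes were. This gene was Creb3 (log2 fold change -0.23, SE 0.09, adjusted p = 0.192). Creb3l1 had -0.41 (SE 0.26) and Creb3l2 0.13 (SE 0.13). Of the 11 reported Creb3l3 targets outside the 10 genes, 4 had enough counts to be tested and 0 passed. Cidec was the only one at an unadjusted p under 0.05, where 19.5% of all genes were. Fads1 and Fads2, fatty acid desaturase genes, had 0.04 and 0.05 (SE 0.08 and 0.09). Fgf21, Hamp and Crp, targets known from liver, had 13, 15 and 31 counts in all 20 mice.

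**Figure D5:**
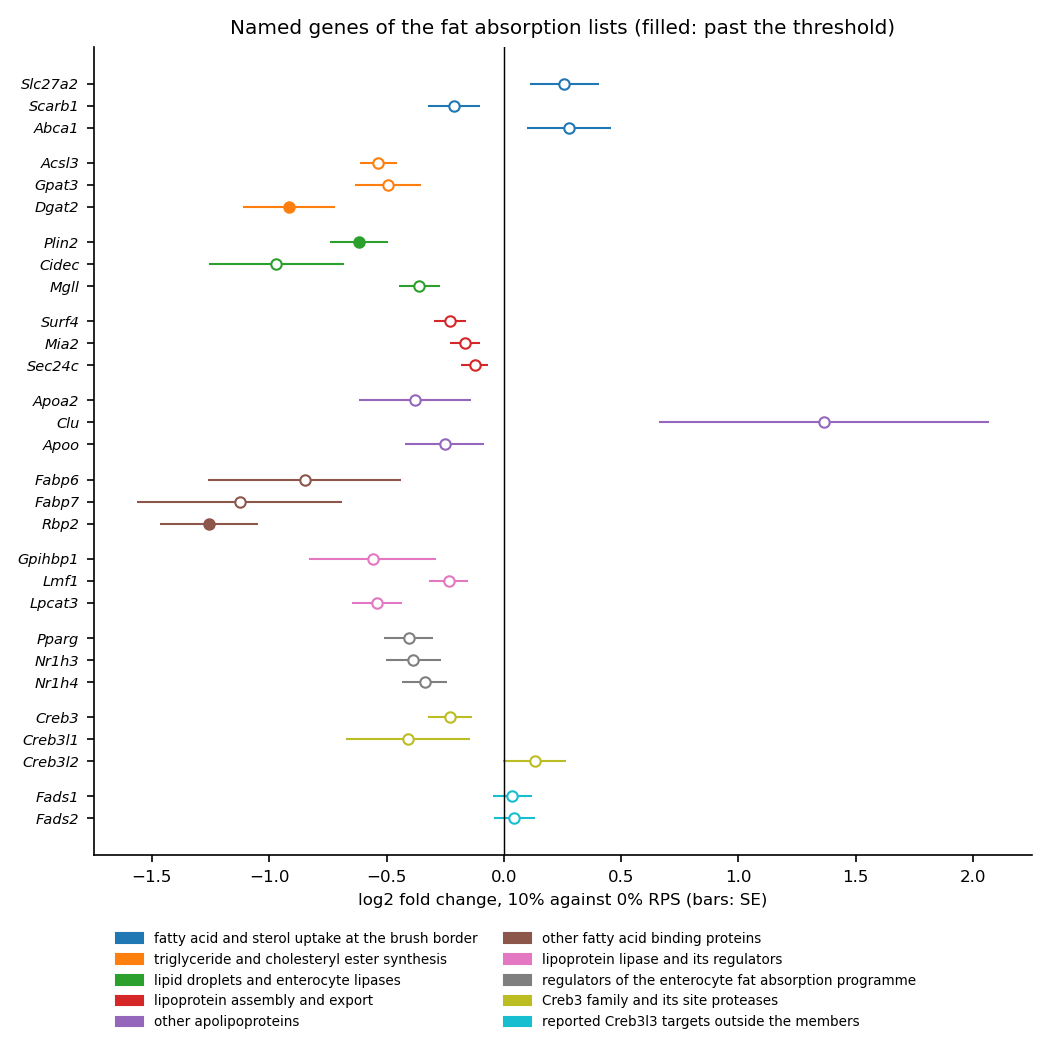
Log2 fold change with 10% against 0% RPS (x axis, bars are SE) of the named genes of the 10 lists (colors), with Cidec drawn once. Filled points, Dgat2, Plin2 and Rbp2, are past the threshold, at -0.92, -0.62 and -1.26.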

How the data were processed

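RNA of 20 mice was analyzed, 5 per diet by the labels' treatment. The authors deposited 1 table of raw counts of single-end reads per gene, made from stranded poly(A) libraries with CLC Genomics Workbench against GRCm39. The annotation release and the strand setting of the counting are not given in the sources used here. Counts were tested with edgeR 4.0.16 (filterByExpr, minimum count 10 and minimum total 15, TMM scaling, robust quasi-likelihood fit of all 4 diets) in R 4.3.3, and Benjamini-Hochberg adjustment ran over 15348 genes. Past the threshold means an adjusted p of at most 0.05 and a fold change of at least 1.5, and for the trend the adjusted p alone. DESeq2 1.42.0 was an alternative. CPM are TMM-scaled, log2 CPM has a prior count of 2, and RPKM uses exon lengths of GENCODE M39. Figures were drawn with matplotlib 3.10.9. The methods were tested on simulated data.

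The members and lists were chosen with earlier results of these data known. Named are all members, the list genes past the threshold in any comparison or the trend, the 3 genes of each list with the smallest p with 10% RPS, and the 5 genes most like Creb3l3, Apoa4 and Apob (those for Apoa1 are not reported here). The smooth muscle and lymphocyte covariates were added after seeing the data. At a depth of 14967798 to 42687283 counts per mouse, 3 counts, taken as the floor, were 0.200 to 0.0703 CPM, which covers counting error only. Mice of a diet were separate animals, and no pair differed by as little as sampling noise.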

Additional observations from a re-analysis of the deposited data

Results flagged for a closer look

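The 10 genes in 4 diets gave 40 groups of 5 mice, which were searched for a mouse far from the rest of its diet, and chance flags about 1 in 20 groups. In the mice fed 10% RPS, the 4th mouse had 0.754 CPM of Apoa4 (16 counts), against 0.209 CPM in the next highest. It also had the highest Creb3l3 and Apoa1 of its diet. In the same diet, the 3rd mouse had 0.442 CPM of Fabp1 (14 counts), against 0.207 CPM in the next highest. These 2 groups are as many as chance gives over 40.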

How the results depend on the processing

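No paired analysis was possible because the diets share no replicate number in the labels. With 10% RPS, 2 members passed, and 1 with at least 10 counts in every mouse, with only the 2 diets compared or with the lymphocyte covariate, and 0 with the fold change tested against 1.5 or with the epithelium, small intestinal enterocyte or smooth muscle covariate. Of all genes, 160 passed, and 161, 98 and 84 in the 3 fits that kept 1 member. Tested against 1.5 it was 0, and 5, 1 and 0 with the epithelium, small intestinal enterocyte and smooth muscle covariates. With 5% RPS, 1 member passed, 2 by DESeq2's Wald test or with only the 2 diets compared, and 0 with at least 10 counts in every mouse, with the fold change tested against 1.5, or with the epithelium or smooth muscle covariate. Over all genes, 30 passed, 241 by DESeq2's Wald test, 65 with only the 2 diets and 42 with at least 10 counts in every mouse. Tested against 1.5 it was 0, and 2 and 0 with the epithelium and smooth muscle covariates. The trend passed for 2 members, for 1 with at least 10 counts in every mouse or with the lymphocyte covariate, and for 0 with the other 3 covariates. It passed for 170 of all genes, 168 with at least 10 counts in every mouse and 38 with the lymphocyte covariate. With the epithelium, small intestinal enterocyte and smooth muscle covariates it passed for 0, 1 and 0 of all genes. Of the list genes, 3 passed with 10% RPS, 5 by DESeq2's Wald test, 6 with no fold change threshold, 1 with the lymphocyte covariate, and 0 with the fold change tested against 1.5 or the other 3 covariates. DESeq2's Wald test called 369 of all genes with 10% RPS, and edgeR with no fold change threshold called 285. The small intestinal enterocyte score includes Rbp2, so the fits with it are no test of that gene. With 5% RPS 2 list genes passed, 4 by DESeq2's Wald test, and 0 with the fold change tested against 1.5 or the same 3 covariates. The trend passed for 6 list genes, 13 by DESeq2's Wald test, 11 with the rank of the dose, and 0 with any of the 4 covariates. For the trend, DESeq2's Wald test called 710 of all genes, and edgeR with the rank of the dose called 539. The strict filter removes Apoa4, Apoa1 and Fabp1. The causes of the other shifts were not tested.

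Leaving out 1 mouse gave 0 to 3 members with 10% RPS, 0 to 2 with 5% RPS and 0 to 3 for the trend, and 1 to 5, 0 to 3 and 0 to 13 list genes. It also gave 0 to 1 pairs with Creb3l3 within diets, where 1 pair passed with the epithelium or the smooth muscle score regressed out, against 0 without. DESeq2's size factors, no filter on low counts and no robust empirical Bayes changed none of the member counts.

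Changes of sign were seen in values that passed no test, and the cause was not tested. With the smooth muscle covariate, the log2 fold change with 10% RPS was 0.021 for Apob, -0.015 for Slc27a2, 0.015 for Apoo, -0.17 for Creb3l2 and -0.049 for Fads1, with 5% RPS -0.82 for Fabp1 and -0.015 for Dgat1, and with 2% RPS 0.078 for Apob. With the epithelium covariate it was 0.015 for Dgat1 with 10% RPS and 0.12 for Mogat2 with 5% RPS. With the small intestinal enterocyte covariate it was 0.018 for Dgat1 and -0.15 for Creb3l2 with 10% RPS, 0.000537 for Apob with 2% RPS and 0.14 for Creb3l3 between 5 and 10% RPS. With the lymphocyte covariate it was 0.0090 for Dgat1 with 10% RPS. The trend of Dgat1 was 0.0030, 0.0041 and 0.0034 per 1% RPS with the epithelium, small intestinal enterocyte and lymphocyte covariates, and that of Mttp was 0.017 with the rank of the dose. Within diets, r of Creb3l3 was -0.0068 with Apob and -0.066 with Fabp2 with the smooth muscle score regressed out, and -0.0079 with Fabp1, -0.046 with Fabp2 and -0.011 with Mogat2 with the epithelium score.

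Without 1 mouse, the log2 fold change ran from -0.092 to 0.68 for Fabp1 and from -0.0091 to 0.063 for Dgat1 with 5% RPS, from -0.27 to 0.0077 for Mogat2 with 2% RPS, from -0.0045 to 0.098 for Fads1 and from -0.015 to 0.099 for Fads2 with 10% RPS. Between 5 and 10% RPS it ran from -0.27 to 1.32 for Apoa4 and from -0.59 to 0.080 for Creb3l3. The trend ran from -0.0085 to 0.0055 for Mttp and from -0.0053 to 0.00047 for Dgat1, and r of Creb3l3 from -0.086 to 0.11 with Fabp1, -0.016 to 0.22 with Fabp2 and -0.033 to 0.36 with Mogat2. Depth limits Apoc3, Fabp1, Apoa1 and, on RPS, Apoa4, which have few counts.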
